A study of Mus musculus with 2 samples.

Results

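Mucins are large glycoproteins whose long serine- and threonine-rich stretches carry dense O-linked sugars. In the rectum and colon the secreted, gel-forming mucin Muc2 is packed into the granules of goblet cells and builds the mucus layer, while transmembrane mucins such as Muc3 and Muc13 cover the apical surface of the columnar cells. The stratified epithelium of the anal canal, which meets the rectum at the anorectal transition zone, has no goblet cells. The 6 mucin genes described here, Muc1, Muc2, Muc3, Muc4, Muc13 and Muc20, were taken by name from the gene lists of both single-cell libraries, 31054 features in the normal and 32285 in the wounded library, and all 6 had at least 1 unique molecular identifier (UMI, 1 counted RNA molecule) in each library.

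Cells came from the anorectal junction of K17CreERT2;R26R-GFP mice on the C57/BL6J background, in which Cre driven by keratin 17 switches on the green reporter ZsGreen1 after tamoxifen, given for 2 days. Both sexes were used, and the study states ages of 6 to 8 weeks in general and 2 to 4 months for wounding. At least 5 mice were pooled and sorted into 1 library in the normal condition and 1 library taken 1 week after a wound, in which hot EDTA and an electric brush removed the rectal crypts next to the transition zone. Both groups therefore carried the same alleles and received tamoxifen, and no library of mice without the transgenes was analysed here. With 1 library per condition the wound and the library cannot be told apart, cells are not replicates, and no p-value is given. Intervals in brackets are exact 95% intervals that cover counting error only.

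The normal library held 2564 barcodes and 17617944 UMIs, of which 939 cells carried a deposited cluster name (Rectum, Basal, Suprabasal or Anal Canal), and 610 further barcodes passed the study's filters but had no name. The wounded library held 17216 barcodes and 88260050 UMIs, with 4147 named cells (Rectum, Hybrid, Basal, Suprabasal, Regeneration or Wound_Stress) and 1078 passing cells without a name, called unlisted below. The libraries shared 1 barcode, and none among the named cells. Rectum held 63 cells in the normal and 397 in the wounded library, with median depths of 10885 and 9991 UMIs. Their label held against the summed level of 14 rectal marker genes, at 11839 and 10206 UMIs per 1000000 UMIs (counts scaled to the depth of a group, CPM). The other groups had 80.7 to 204 CPM in the normal and 133 to 1439 CPM in the wounded library. Of these genes 13 were detected in the normal (Cdx2 was at 0) and 14 in the wounded Rectum cells. Detection alone did not set Rectum apart, since all 14 were also detected in the wounded Suprabasal cells. Hybrid, a cluster of 316 cells, was shallower, with a median of 2390.0 UMIs.

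The genes lie on 4 chromosomes of GRCm38. Muc1 (ENSMUSG00000042784) is at chr3:89229057-89233381 and Muc2 (ENSMUSG00000025515) at chr7:141690340-141754693, both on the plus strand. Muc3 (ENSMUSG00000037390) is at chr5:137134922-137149322 on the minus strand, and its neighbour Muc3a (ENSMUSG00000094840) is at chr5:137208813-137212389 on the same strand. How reads were divided between these relatives is uncertain. Muc4 (ENSMUSG00000079620, plus strand, chr16:32735886-32782391) and Muc20 (ENSMUSG00000035638, minus strand, chr16:32777419-32797435) face each other, and their 3′ ends overlap by 4973 bases. Muc13 (ENSMUSG00000022824), also on the plus strand of chromosome 16, is at chr16:33794037-33819934.

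The upstream sequences of Muc2, Muc3 and Muc13 are shown because these 3 genes carried most of the mucin signal of the Rectum cells. They are read in the direction of transcription from RefSeq windows on GRCm38.p6, at chr7:141690090-141690339 (plus strand) for Muc2 and chr5:137166047-137166296 (minus strand) for Muc3. Muc13 has 2 RefSeq starts, with windows at chr16:33793787-33794036 and chr16:33794239-33794366 (plus strand). The Muc3 start of RefSeq lies outside the GENCODE gene Muc3 and over Gm3054. The second Muc13 window lies within the GENCODE gene. Its bases from a GENCODE transcript start onward were left out, so those shown end before the RefSeq start. Capitals mark matches to the motifs searched.
Muc2: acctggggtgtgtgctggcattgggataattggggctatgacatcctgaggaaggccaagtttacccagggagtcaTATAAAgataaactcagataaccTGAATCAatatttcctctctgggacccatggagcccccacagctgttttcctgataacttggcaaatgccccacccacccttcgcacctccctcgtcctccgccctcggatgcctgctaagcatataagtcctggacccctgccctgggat
Muc3: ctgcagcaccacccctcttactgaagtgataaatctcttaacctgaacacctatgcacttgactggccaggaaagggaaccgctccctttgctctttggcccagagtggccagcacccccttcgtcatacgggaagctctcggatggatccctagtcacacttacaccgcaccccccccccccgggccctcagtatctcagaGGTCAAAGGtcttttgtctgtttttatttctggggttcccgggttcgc
Muc13, first start: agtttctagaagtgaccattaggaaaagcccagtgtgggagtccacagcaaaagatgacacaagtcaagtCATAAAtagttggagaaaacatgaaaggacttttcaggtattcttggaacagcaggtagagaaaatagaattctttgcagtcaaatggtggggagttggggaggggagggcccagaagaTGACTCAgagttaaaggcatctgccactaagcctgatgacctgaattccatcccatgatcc
Muc13, second start: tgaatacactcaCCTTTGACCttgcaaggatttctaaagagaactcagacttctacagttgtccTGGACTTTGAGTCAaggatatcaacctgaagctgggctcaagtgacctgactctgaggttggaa
Both strands were searched for 6 short motifs. The CDX motif was TTTATG, held by 10.8% of 32851 RefSeq promoter windows. The GATA motif was AGATAAG, held by 2.74% of the windows. For HNF4 the letters were CAAAGTCCA, held by 0.384%. For AP-1 they were TGANTCA, held by 6.75%. The TATA box was searched as TATAAA, held by 12.4%. The sixth, a direct-repeat motif of nuclear receptors, was GGTCAAAGG, held by 0.31%, and its letters were picked after these sequences had been read. The Muc2 window held the TATA letters at position -174 and the AP-1 motif at position -151. The direct repeat stood at position -48 before the Muc3 start. On the opposite strand it stood at position -116, counted from the end of the bases shown for the second Muc13 start, not from that start. The HNF4 and AP-1 motifs also occurred in those bases, overlapping each other. The first Muc13 window held the CDX motif at position -180 and the AP-1 motif at position -61, and no match to the direct repeat or the HNF4 letters. The shares were counted over windows longer than the second of Muc13. The matches are letters in these windows and were not measured as binding sites.

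Muc2, the gel-forming mucin of goblet cells, was highest in Rectum in both libraries. The normal Rectum had 195 CPM (163 to 230.0), from 137 UMIs in 13 of 63 cells, against 0.501 to 2.63 CPM in the other named clusters and the unlisted cells. The wounded Rectum had 1067 CPM (1036 to 1099), from 4386 UMIs in 178 of 397 cells. Hybrid came next with 46.5 CPM (36.2 to 58.9), and the log2 ratio of Rectum over Hybrid was 4.52 (4.18 to 4.88). Below Hybrid, the unlisted cells and the 4 stratified clusters lay between 11.1 and 16.8 CPM, and no 2 neighbours in that order differed beyond their counting intervals.

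Muc3, a transmembrane mucin of the enterocyte brush border, was also highest in Rectum. Its level there was 1076 CPM (1001 to 1156) in the normal library, from 758 UMIs in 48 cells, and 374 CPM (355 to 393) in the wounded library, from 1536 UMIs in 222 cells. The normal clusters other than Rectum ranged from 0.370 to 1.14 CPM, and the unlisted cells had 12 Muc3 UMIs in 7 of 610 cells, 9.07 log2 units below Rectum (8.26 to 10.03). In the wounded library Hybrid had 22.3 CPM (15.3 to 31.3), above Suprabasal with 10.2 CPM by a log2 ratio of 1.13 (0.52 to 1.69). The other wounded groups, between 5.73 and 8.23 CPM, did not differ from their neighbours beyond counting error.

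Muc13, a transmembrane mucin of the intestinal surface, was the most widely detected member. It had a UMI in 60 of the 63 normal and 357 of the 397 wounded Rectum cells, at 919 CPM (849 to 992) and 653 CPM (629 to 678). Hybrid followed in the wounded library with 74.8 CPM (61.6 to 90.1), 3.12 log2 units below Rectum (2.85 to 3.41) and 2.30 above Suprabasal (1.94 to 2.65). In the normal library no other group passed 3.17 CPM, and Suprabasal had 0 Muc13 UMIs in 187 cells, where 3 UMIs would be 1.31 CPM.

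**Figure D1:**
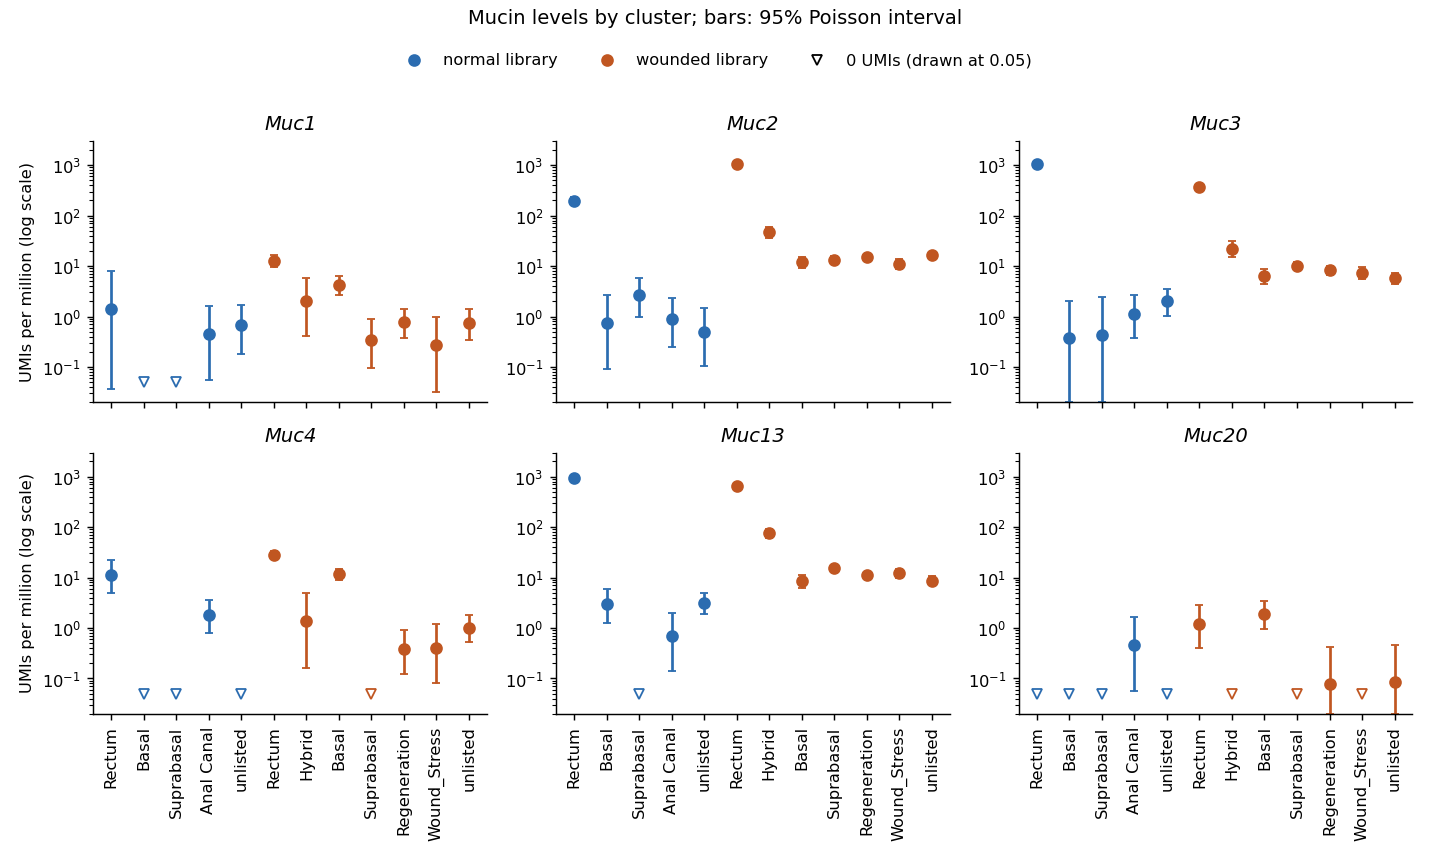
Levels of the 6 mucins in CPM (log axis) in each named cluster and in the unlisted cells, blue for the normal and orange for the wounded library; bars are 95% Poisson intervals, drawn to the axis edge where they reach below it, and open triangles mark 0 UMIs. Muc2, Muc3 and Muc13 peak in Rectum in both libraries, at 195 to 1076 CPM in the normal and 374 to 1067 CPM in the wounded cells, while Muc4 and Muc20 have a further high point in the wounded Basal cluster, at 11.5 and 1.92 CPM.

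The remaining 3 members were scarce, and 1 group outside Rectum held much of what there was. Muc4, a transmembrane mucin that binds the receptor ErbB2, stood at 28.5 CPM (23.5 to 34.1) in the wounded Rectum cells, from 117 UMIs in 95 cells, and at 11.4 CPM (4.90 to 22.4) in the normal ones, from 8 UMIs. The wounded Basal cluster had 11.5 CPM (8.89 to 14.6), from 66 UMIs in 21 cells, and the wounded Suprabasal cluster had 0 UMIs in 1032 cells, where 3 UMIs would be 0.259 CPM. Muc1, the transmembrane mucin of many simple and glandular epithelia, had 12.9 CPM (9.66 to 16.9) in the wounded Rectum and 4.18 CPM (2.68 to 6.22) in the wounded Basal cells, but 1 UMI in the normal Rectum. Muc20, a membrane mucin first described in kidney, had 2 UMIs in the normal library, both in Anal Canal, and in the wounded library 11 UMIs in Basal, 5 in Rectum, 1 in Regeneration and 1 in the unlisted cells. For Muc20 the wounded Basal level of 1.92 CPM and the Rectum level of 1.22 CPM did not differ beyond counting error (log2 ratio 0.66, -0.99 to 2.53).

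Against all other named cells of the same library, each member with at least 20 UMIs was past 4-fold higher in Rectum, which is a description, since the clusters were formed on the same cells. For the normal library these were Muc2, Muc3 and Muc13, 3 of 3, and 6.55% of the 11406 genes with that minimum were as much higher. These 3 reached the minimum only through Rectum, with 12, 7 and 11 UMIs in the other named cells. Rectum held far fewer UMIs in all than those cells, so a member reaching it this way had to pass 4-fold. The count of 3 of 3 therefore says little about the members as a set. The wounded library had 5 of 5, with log2 ratios of 3.56 (2.95 to 4.17) for Muc1, 6.19 (6.06 to 6.32) for Muc2, 5.39 (5.23 to 5.57) for Muc3, 3.88 (3.45 to 4.31) for Muc4 and 5.49 (5.36 to 5.62) for Muc13, against 9.12% of 14241 genes. Enzymes that build the O-linked sugars of mucins were higher beside them. Of a list of 25, 12 of 17 measured genes were past 4-fold higher in the normal Rectum and 17 of 22 in the wounded Rectum. Their median log2 ratios were 3.73 and 3.52, beside 0.10 and 0.09 over all genes. Examples in the wounded Rectum were Galnt12, which adds the first sugar, at 118 against 2.42 CPM, Gcnt3, a branching enzyme, at 88.3 against 0.891 CPM, and Fut2, a fucosyltransferase, at 44.0 against 1.99 CPM. St3gal1, a sialyltransferase, went the other way, with 0 UMIs in the wounded Rectum and 155 in the other named cells. All 13 genes of a goblet cell list without mucins (Agr2, Tff3, Fcgbp, Zg16, Clca1, Spink4 and others) were past 4-fold higher in Rectum in both libraries.

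Within Rectum, Muc2 and Muc3 lay largely in different cells and Muc13 lay in both kinds. Rectum cells were ordered by the summed level of the goblet list and divided into 5 bins of equal size, of 79 or 80 wounded and 12 or 13 normal cells. Wounded Muc2 was at 13.6 and 12.3 CPM in the 2 lowest bins, 42.8 in the next, 692 in the fourth and 3947 CPM (3823 to 4073) in the highest. Muc3 ran the opposite way, at 716, 544, 527, 147 and 8.21 CPM (3.54 to 16.2). Muc13 was at 1029 CPM (953 to 1109) in the lowest bin, 410.2 (362 to 463) in the third and 838 (782 to 898) in the highest. The normal Rectum had the same opposition of Muc2 and Muc3 in its highest bin. Muc3 did not fall steadily in the bins before it, at 1686, 1256, 1052 and 1253 CPM. Muc2 had 0 UMIs in the 3 lowest bins, 115 CPM in the fourth and 1046 CPM (868 to 1249) in the highest, where Muc3 fell from 1253 CPM in the fourth bin to 8.64 CPM, a single UMI. Muc4 in the wounded Rectum stood at 12.1 CPM (5.22 to 23.8) in the lowest and 38.0 CPM (26.7 to 52.3) in the highest bin, and 29 of the 53 Muc1 UMIs were in the highest. The median depth of the wounded bins ranged from 4536 to 14511 UMIs without following this order.

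When the same cells were ordered by absorptive colonocyte genes instead, Muc13 and Muc3 were both at their highest in the top bin of each library. Muc13 ran from 420.3 CPM (367 to 479.5) in the lowest to 1409.5 CPM (1308 to 1517) in the highest wounded bin and from 777 CPM (623 to 957) to 1640.1 CPM (1382 to 1932) in the normal bins. Muc3 was at 651 CPM (582 to 726) in the wounded and 1996 CPM (1710.1 to 2315) in the normal top bin, but had 222 CPM in the fourth wounded bin. Muc2 was highest in the third bin of both libraries, at 2029 and 380.3 CPM. The lowest and highest wounded bins were shallow, with median depths of 3932 and 3412 UMIs, against 11094 to 14942 UMIs in those between. In both libraries cells with 0 UMIs of the colonocyte list filled the lowest bin and reached into the second. They were divided between these bins by their order in the data. The part of depth in these levels was not tested.

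**Figure D2:**
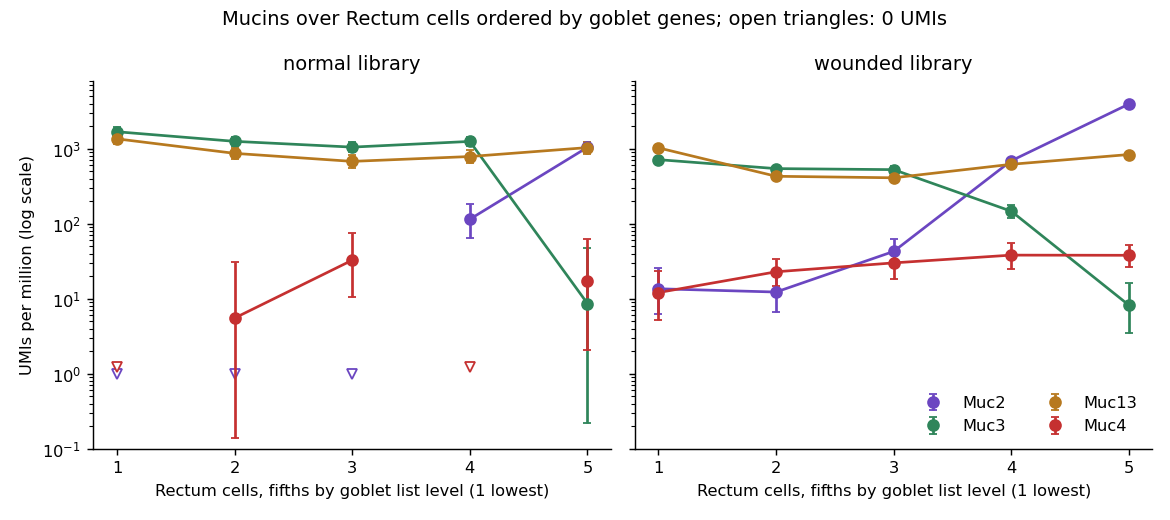
Levels of Muc2, Muc3, Muc13 and Muc4 in CPM (log axis) over Rectum cells in 5 bins by the level of a goblet gene list without mucins, lowest on the left, with 95% Poisson intervals and open triangles for 0 UMIs. Muc2 climbs to 1046 and 3947 CPM in the highest bin of the normal and wounded library, Muc3 drops there to 8.64 and 8.21 CPM, and Muc13 is at 410.2 CPM or more in every bin.

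The separation of Muc2 and Muc3 largely held cell by cell. Without thinning, 54 of the 178 wounded and 4 of the 13 normal Rectum cells with Muc2 also had Muc3. With each cell thinned to 2000 UMIs, 11 normal Rectum cells had Muc2, 41 had Muc3 and 1 of 60 had both, and among the wounded cells 121 had Muc2, 143 had Muc3 and 10 of 354 had both. The Pearson correlation of the log values was -0.58 over the 63 normal and -0.53 over the 397 wounded cells, which share a library and a depth range. Muc13 was found beside either: of the thinned wounded cells with Muc2, 84 of 121 also had Muc13, and of those with Muc3, 90 of 143. Of the 3 abundant members Muc2 was the most concentrated, with 50% of its UMIs in 4 of the 63 normal and 17 of the 397 wounded cells and up to 261 UMIs in a cell. The corresponding numbers of wounded cells were 47 for Muc3 and 79 for Muc13. Muc1, with 53 UMIs in 38 wounded cells, had 50% of them in 12 cells.

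A fresh clustering from which all Muc genes had been withheld divided the 397 wounded Rectum cells in the same way. A cluster with 289 of them had 177 CPM of Muc2, 563 of Muc3, 581 of Muc13 and 23.1 of Muc4. The other, with 108, had 2664 CPM of Muc2, 34.0 of Muc3, 782 of Muc13 and 38.1 of Muc4. No unlisted cell fell into either cluster. In the normal library all 63 Rectum cells stayed in 1 cluster of 69 cells.

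The wounded Rectum cells were set against the normal Rectum cells to ask whether the mucin profile of the rectum was altered 1 week after its crypts had been removed. Muc2 was higher, at 1067 against 195 CPM, a log2 ratio of 2.46 (2.21 to 2.71), and Muc3 lower, at 374 against 1076 CPM (-1.53, -1.65 to -1.40). Muc4 was higher by 1.33 (0.30 to 2.57) and Muc1 by 3.18 (0.64 to 8.51), the latter against 1 UMI. Muc13 was 0.49 log2 units lower by the sum of UMIs (653 against 919 CPM, interval of the ratio -0.62 to -0.37), inside the 2-fold limit. Of the 5 members with at least 20 UMIs, 3 were past 2-fold higher, beside 11.6% of the 10197 genes with that minimum, and 1 was past 2-fold lower, beside 6.41%. Of the 3, Muc1 (53 against 1 UMI) and Muc4 (117 against 8 UMIs) reached the minimum only through the wounded Rectum. Their intervals reached below the 2-fold limit, so the count of 3 says little about the members as a set. Muc20 had 5 UMIs in the wounded and 0 in the normal Rectum cells, which allows no ratio. The normal Muc2 level rested on 13 cells, with 50% of its UMIs in 4, a spread that the interval does not cover. Barcodes failing on the mitochondrial share held 67.1% of the normal Muc2 UMIs, but 25.1% of those of Muc3. Over all failing barcodes the wounded over normal log2 ratio of Muc2 was -0.18 (-0.34 to -0.01), scaled to UMIs of nuclear genes. The part of the filter in the Rectum ratios was not tested.

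The shares of cells moved in the same direction as the levels. After thinning to 2000 UMIs, Muc2 was found in 18.3% (9.52 to 30.4) of 60 normal and 34.2% (29.2 to 39.4) of 354 wounded Rectum cells. Muc3 was found in 68.3% (55.0 to 79.7) and 40.4% (35.2 to 45.7), and Muc13 in 81.7% (69.6 to 90.5) and 65.0% (59.8 to 69.9). Without thinning the shares were 20.6% and 44.8% for Muc2, 76.2% and 55.9% for Muc3 and 95.2% and 89.9% for Muc13. In fibroblast-like cells of the wounded library, which should lack mucins and had a median of 6928 UMIs, the thinned shares were 3.50% for Muc2, 1.75% for Muc3 and 2.80% for Muc13 of 286 cells.

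Some goblet genes were higher beside Muc2, and some colonocyte genes lower beside Muc3. Of the 13 goblet genes, 6 were past 2-fold higher in the wounded Rectum, beside 11.6% of all genes, and none past 2-fold lower, led by Clca1 (798 against 22.7 CPM), Zg16 (442 against 28.4 CPM) and Fcgbp (741 against 115 CPM), all secreted into mucus. Of 10 measured genes of absorptive colonocytes, 3 were past 2-fold lower, beside 6.41% of all genes: Car1 (-1.43) and Car4 (-1.30), carbonic anhydrases, and Slc26a3 (-1.22), a chloride and bicarbonate exchanger. Of 20 measured O-glycosylation genes, 5 were past 2-fold higher, beside 11.6% of all genes, among them C1galt1 (1.04) and Gcnt3 (1.26). Past 2-fold lower was 1 gene, Galnt4 (-1.34), beside 6.41% of all genes. The median of all genes was 0.02. The failing barcodes went the other way for the 1 gene of each of the goblet and colonocyte lists compared there. Scaled to UMIs of nuclear genes, their wounded over normal log2 ratio was 1.04 (0.81 to 1.28) for Slc26a3 and -0.88 (-1.02 to -0.74) for Tff3. Barcodes failing on the mitochondrial share held 89.2% of the wounded Slc26a3 UMIs, and Rectum 2.88%. The part of the filter in these list ratios was not tested.

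Goblet-rich cells were then counted and compared on their own. At a limit of 10000 CPM of the goblet list, chosen after the data had been seen, 15 of 63 normal (23.8%, 14.0 to 36.2) and 125 of 397 wounded Rectum cells (31.5%, 26.9 to 36.3) were at or over it, and 3 and 41 cells lay within 2-fold of it. Among the cells at or over the limit Muc2 was at 807 CPM in the normal and 2859 CPM in the wounded library (log2 ratio 1.82, 1.57 to 2.09), and among the cells under it at 23.6 and 39.8 CPM, with an interval of the ratio that held 0 (0.75, -0.08 to 1.71). Among the cells under the limit Muc3 was at 1353 and 567 CPM (-1.25, -1.38 to -1.13) and Muc13 at 912 and 576 CPM (-0.66, -0.81 to -0.51). Muc3 was lower by about as much in the cells at or over the limit, at 84.6 and 36.1 CPM (-1.23, -2.12 to -0.23), from 13 and 54 UMIs. Whether Muc3 was also lower in the most goblet-rich cells could not be told from so few UMIs. In the highest of the 5 goblet bins Muc3 was at 8.64 CPM (0.219 to 48.1) in the normal and 8.21 CPM (3.54 to 16.2) in the wounded library, from 1 and 8 UMIs. These bins began at 26623 and 33281 CPM of the goblet list. Muc13 was at 944 and 787 CPM in the cells at or over the limit (-0.26, -0.51 to -0.00). The wounded Rectum cells also had more RNA of other cell types, with 658 against 193 CPM of 6 stratified basal genes and 242 against 1.42 CPM of 6 fibroblast genes, whose part in the mucin ratios was not tested. Their median mitochondrial share was 12.9% against 9.26%. Among cells under 10% mitochondrial UMIs the ratios were 2.19 for Muc2, -1.45 for Muc3 and -0.42 for Muc13.

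Outside Rectum, the wounded library had a low level of Muc2, Muc3 and Muc13 in every group of cells. In the stratified clusters together it was 13.4, 8.36 and 12.2 CPM, and in the fibroblast-like cells 22.4 (16.8 to 29.3), 19 (13.9 to 25.4) and 21.5 CPM (16.0 to 28.3). The pooled stratified levels were thus below those of the fibroblast-like cells. In stratified cells with 10% or more mitochondrial UMIs, given below, the levels were above the fibroblast-like ones, with intervals that overlapped. Where the mucin UMIs of the stratified cells came from was not tested. The fibroblast-like cells had a median mitochondrial share of 5.84%, near the 6.13% of the stratified cells under 10%. Their mucin levels were above those of that stratified class, given next. The stratified levels moved with the mitochondrial share of the cells. In stratified cells with under 10% mitochondrial UMIs Muc2 was at 6.56, Muc3 at 2.70 and Muc13 at 3.63 CPM, and in those with 10% or more at 28.3, 20.7 and 30.9 CPM. Slc26a3, a gene of surface colonocytes, did the same, at 2.16 and 34.7 CPM. In the Rectum cells the mucins differed less between these classes, with 987 and 1145 CPM of Muc2, 348 and 399 of Muc3 and 657 and 649.5 of Muc13, while Slc26a3 was at 22.2 and 90.1 CPM. As a share of the Rectum level, Muc2 in the stratified clusters was 1.04% to 1.43%, Muc3 1.68% to 2.73% and Muc13 1.28% to 2.33%, beside medians of 1.47% to 2.57% over 13 rectal marker genes. The ratio of Muc2 to Muc13 UMIs in the stratified clusters, 0.881 to 1.44, lay between that of the failing barcodes (0.827) and that of Rectum (1.63). Other ratios did not all lie between. Muc3 to Muc13 was 0.604 to 0.750 in the stratified clusters, 0.708 in the failing barcodes and 0.572 in Rectum. Slc26a3 to Muc13 was 0.857 to 1.27, 0.935 and 0.0868.

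Among the mucins, Muc13 was the one most above the stratified clusters in Hybrid. Its log2 ratio was 2.62 (2.31 to 2.92), past 4-fold, as for 1 of 5 members and 6.63% of 13776 genes. Muc2 (1.80, 1.41 to 2.16) and Muc3 (1.41, 0.85 to 1.93) were higher too, Muc1 (0.93, -1.40 to 2.58) and Muc4 (-0.54, -3.61 to 1.37) had intervals that held 0, and Muc20 had 0 UMIs. After thinning, Muc13 was in 7.07% (3.82 to 11.8) of 184 Hybrid cells, Muc2 in 7.07% and Muc3 in 4.89% (2.26 to 9.08), where the fibroblast-like cells had 2.80%, 3.50% and 1.75%. Median depths were 2390.0 UMIs in all Hybrid and 6928 in the fibroblast-like cells, and the intervals of the 2 groups overlapped for each gene. The shares over the stratified clusters together were 1.65% for Muc13 (1.25 to 2.14), 2.01% for Muc2 (1.56 to 2.54) and 1.77% for Muc3 (1.35 to 2.27), with intervals that lay apart from those of Hybrid for Muc13 and Muc2 and met at the edge for Muc3. Among cells under 10% mitochondrial UMIs, Muc13 in Hybrid was at 58.3 CPM (42.2 to 78.5) and Muc2 at 32.5 CPM (20.8 to 48.4), while Muc3 was 1 UMI and its ratio to the stratified clusters turned to -0.99. As a share of the Rectum level, Hybrid had 11.5% for Muc13, 5.95% for Muc3 and 4.36% for Muc2, beside a median of 14.1% (6.58% to 34.3%) over the 13 rectal genes.

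The mucin UMIs of Hybrid lay mostly in its deeper cells, and the Muc13 level was highest in cells with hormone genes. The 48 Hybrid cells with Muc13 had a median of 10070.0 UMIs, against 2146 in the 268 without. A difference in this direction follows from the choice of cells, since a sparse gene is more often detected in a deep cell. Cells were divided by whether they held 10 or more UMIs of an enteroendocrine list (Chga, Chgb, Pyy, Insl5 and others) or of a stratified basal list (Krt5, Krt14, Krt17 and others), with 15 and 121 cells near these limits. In 24 cells with enteroendocrine UMIs alone Muc13 was at 239 CPM (176 to 318), from 47 UMIs in 17 cells, while Muc3 had 0 UMIs and 18 of the 20 Muc2 UMIs came from 1 cell. In 139 cells with stratified basal UMIs alone Muc13 was at 46.6 CPM (31.9 to 65.8), Muc2 at 37.9 and Muc3 at 23.3 CPM. In the 12 cells with both it was at 148 CPM (96.1 to 219), and in the 141 with neither at 16.2 CPM (6.53 to 33.4), near the fibroblast-like level.

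**Figure D3:**
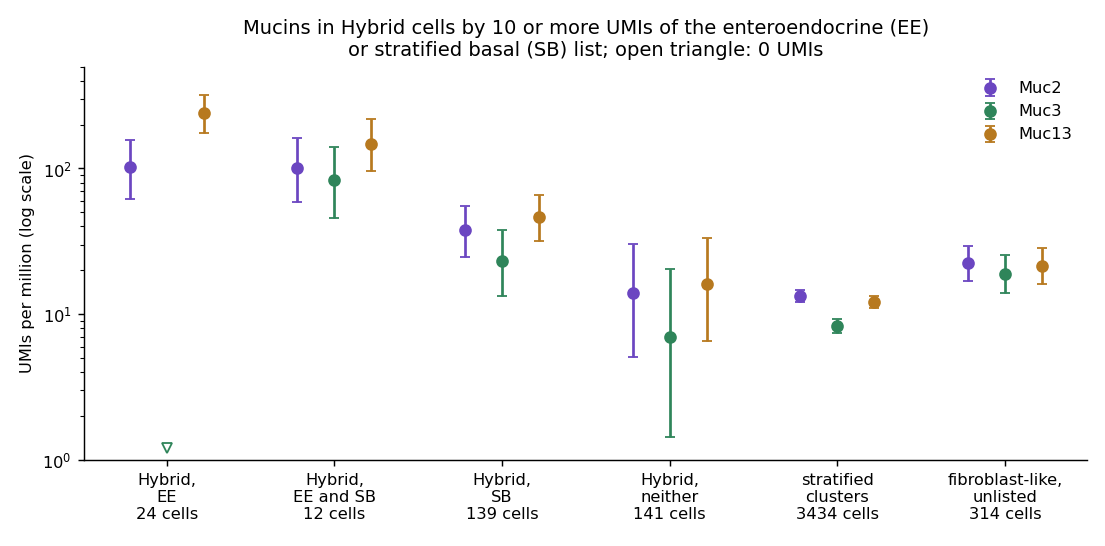
Levels of Muc2, Muc3 and Muc13 in CPM (log axis) in Hybrid cells divided by enteroendocrine (EE) and stratified basal (SB) genes, beside the stratified clusters and the fibroblast-like cells; bars are 95% Poisson intervals. Muc13 is highest in the 24 cells with enteroendocrine UMIs alone, at 239 CPM, where Muc3 has 0 UMIs, and the cells with neither list sit near the fibroblast-like level.

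Few cells carried Muc13 together with both keratins that mark the 2 epithelia. At least 2 Muc13, 3 Krt8 and 10 Krt17 UMIs were found in 12 of 316 Hybrid (3.80%, 1.98 to 6.54), 13 of 397 Rectum (3.27%, 1.75 to 5.53) and 16 of 1032 Suprabasal cells (1.55%, 0.889 to 2.51) of the wounded library. They were also met by 4 of 1078 unlisted cells and 1 of 991 Regeneration cells of the wounded library and by no named or unlisted cell of the normal library. The normal intervals reached 5.69% in Rectum (0 of 63 cells) and 1.95% in Suprabasal (0 of 187 cells), and so held the wounded shares of these clusters. In the 3 wounded clusters with most such cells, these cells were deep. Their medians were 11596 UMIs in Hybrid, 18479 in Rectum and 18262 in Suprabasal, against 2390.0, 9991 and 10594 over those whole clusters. The limits are absolute counts and by themselves favour deep cells. The 4 unlisted cells had a median of 10398 UMIs, near the 9897 of their group. No doublet caller was run, and the part of 2 cells under 1 barcode was not tested. In the fresh clustering 25 Hybrid cells joined the rectum-like cluster, with 223 CPM of Muc13, 167 of Muc2 and 107 of Muc3, and 68 fell into a cluster without a name led by hormone genes (Scg2, Sst, Gcg, Insl5), with 101, 46.4 and 0 CPM. A further 60 fell into an unnamed cluster led by endothelial genes (Kdr, Ptprb, Mmrn1, Ccl21a, Cldn5), with 56.1, 42.1 and 28.1 CPM. Hybrid thus held cells of several kinds, with summed levels of 21701 CPM of enteroendocrine, 4394 of stratified basal, 1762 of inner root sheath and 348 of lymphatic endothelial genes, and its mucin levels are averages over them.

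Muc4, Muc20 and Muc1 came together in a small set of cells named Basal in the wounded library. By Krt13, Krt4 and suprabasal genes that cluster was nearer to the normal Anal Canal than to the normal Basal cluster. Krt13 was at 1443 CPM in the wounded Basal, 812 in the normal Anal Canal and 2.96 in the normal Basal cells. Krt4 was at 756, 864 and 1.48 CPM, and a list of 5 stratified suprabasal genes at 8544, 10204 and 555 CPM. The summed stratified basal list was nearer to the normal Basal cluster, at 13312, 19389 and 13075 CPM in the same order. So was Krt5 of that list, at 2770.1, 3829 and 2123 CPM. In the wounded Basal cluster 24 of 573 cells had a Muc4 or Muc20 UMI, 21 with Muc4 and 9 with Muc20, 6 of them with both, and 9 of these 24 cells held 20 of the 24 Muc1 UMIs of the cluster. They had no Muc2 UMI, and their median depth of 8999 UMIs was like that of the others, 9075. The 3′ ends of Muc4 and Muc20 overlap on opposite strands, and the strand setting of the counting is not given in the sources used here. Whether reads of 1 gene were counted for the other there was not tested. In the normal library 6 of 432 Anal Canal cells had a Muc4 or Muc20 UMI, 1 of them both, and none had Muc1.

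These cells also differed from the rest of their cluster in many other genes, given here as a description because the cells were chosen by their mucins. The leading genes in the wounded Basal cluster included Psca at 29422 against 201 CPM, Ltf, which encodes lactoferrin, at 10437 against 79.7 CPM, Sprr2d and Crct1 of the epidermal differentiation complex, and the serine proteases Prss22 and Prss27. Krt13, a keratin of non-keratinised stratified epithelium, was at 12325 against 1012 CPM and Krt19 at 3584 against 101 CPM, whereas the basal keratin Krt5 was at 846 against 2846 CPM. In the 6 normal Anal Canal cells Psca was at 54420.4 against 143 CPM, Ltf at 15354 against 29.0 CPM, Krt13 at 8728 against 733 CPM and Krt19 at 7827 against 148 CPM. Other genes differed between the libraries. Krt15, a keratin of basal cells, was lower in the wounded cells with these mucins (539 against 1288 CPM) and higher in the normal ones (10898 against 2409 CPM), and Sprr2d and Crct1 were each found in 1 of the 6 normal cells. The summed O-glycosylation list was at 507 against 208 CPM in the wounded and 554 against 155 CPM in the normal cells. The summed rectal marker list was also higher, at 608 against 166 CPM and 1039 against 124 CPM. Krt8 of that list was at 54.9 against 26.4 CPM in the wounded cells, from 12 UMIs. In the normal cells it was at 23.1 against 25.4 CPM, from 1 UMI. The goblet list was at 165 against 84.8 CPM in the wounded and 46.2 against 48.9 CPM in the normal cells. The summed stratified basal list was at 5248 against 13632 CPM in the wounded cells. In the normal cells it was nearly equal, at 18286 against 19399.8 CPM.

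**Figure D4:**
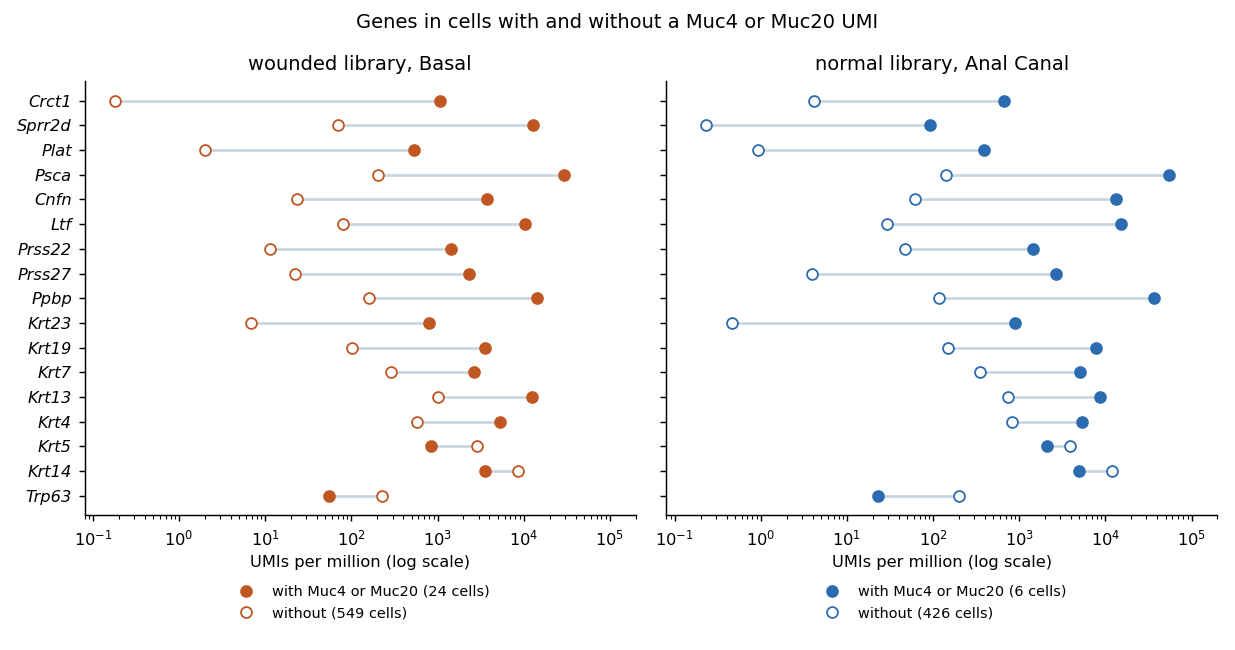
Levels of 17 genes in CPM (log axis) in cells with (filled) and without (open) a Muc4 or Muc20 UMI, in the Basal cluster of the wounded library (24 and 549 cells) and the Anal Canal cluster of the normal library (6 and 426 cells). Psca, Ltf, Krt13 and Krt19 lie to the right in the cells with these mucins in both libraries, and Krt5, Krt14 and Trp63 lie to the left.

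Over the 12 groups of cells, the genes most like the 3 abundant members were named by Pearson correlation of log2(CPM + 1) among 9166 genes. They are a description, and the part of free RNA shared by the groups of a library was not tested. For Muc2 they were Agap1 (0.978), Sval1, Fcgbp, Tm9sf4 and Msi2, for Muc3 Ly6g (0.994), Phgr1, Lypd8, Gsdmc4 and Pigr, and for Muc13 Lgals4 (0.991), Lypd8, Tm4sf20, Eps8l3 and Fam83e. Over the 397 wounded Rectum cells, among 4814 genes, Muc2 was most like Fcgbp (0.877), Tff3 (0.750), Sval1 (0.729), Rep15 and Clca1 (both 0.707). In the 63 normal cells the same pairs gave 0.785, 0.686, 0.881, 0.501 and 0.227, so that Clca1 was the pair that carried over least. Muc3 was most like Wfdc2 (0.527 in the wounded and 0.610 in the normal cells), Tm4sf20, 2610528A11Rik, Itih5 and Maoa. Muc13 was most like Phgr1 (0.519 and 0.239), Lypd8, Cdhr5, Crip1 and Sprr2a3. The values for Muc4 were weak, 0.337 or less (Zmynd8, Cbfa2t3, Atf4, Rap1gap and Phldb2), from sparse counts.

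Much of the mucin RNA lay in barcodes that did not pass the filters. Among wounded barcodes, Rectum held 37.9% of all Muc2 UMIs, 20.6% of Muc3 and 24.2% of Muc13, with 4.66% of all UMIs of the library. The 11900 barcodes that failed on the mitochondrial share (25% or more) held 53.5%, 62.0% and 62.6%, with 34.1% of all UMIs. In the normal library Rectum held 29.3% of Muc2, 65.7% of Muc3 and 62.5% of Muc13, and the 1003 barcodes failing on the mitochondrial share held 67.1%, 25.1% and 27.8%. Of the 20 wounded Muc20 UMIs, 5 lay in Rectum, 12 in other named cells and 2 in barcodes failing on the mitochondrial share.

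**Figure D5:**
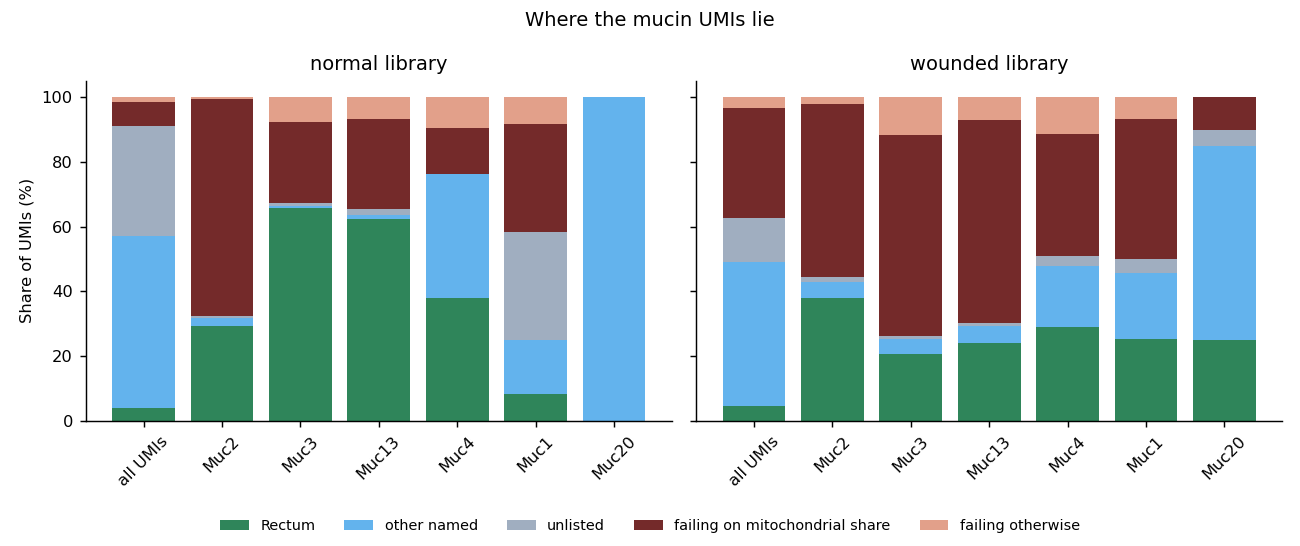
Share in percent of all UMIs and of the UMIs of each mucin in Rectum, other named cells, unlisted cells and barcodes failing the filters, for the normal and the wounded library. In the wounded library barcodes failing on the mitochondrial share hold 53.5% to 62.6% of the UMIs of Muc2, Muc3 and Muc13, and in the normal library Rectum holds 65.7% of Muc3 but 29.3% of Muc2.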

How the data were processed

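Single cells of 1 normal and 1 wounded sample were profiled by 10x 3′ sequencing after a sort on Epcam and GFP. What the authors deposited as counts are whole UMIs for each barcode, not normalized and aligned to mm10, from Cell Ranger 3.1.0 per the labels and, in the header of the wounded file, 4.0.0. The authors also deposited, for their named cells, natural log values, which were used for cell names only. Counts were summed per cluster and divided by all UMIs of the cluster (CPM). Levels have exact Poisson intervals, ratios exact binomial intervals and shares Clopper-Pearson intervals at 95%. A level of 0 was read against 3 UMIs. Ratios were counted among genes with at least 20 UMIs in both groups together. Filters of the study (over 200 and under 5000 genes, under 25% mitochondrial UMIs) and its clustering (Seurat 5.3.0 in R 4.3.3, with 2000 variable features without Muc genes, 10 principal components, cell-cycle regression and resolution 0.2) were repeated. Scripts used Python 3.11.15, numpy 2.4.6, scipy 1.17.1 and pandas 2.3.3, and the ratio was tested on simulated counts. Named genes are the 6 members, the 5 genes most correlated with each member that had at least 100 UMIs (over the groups in each library, on log2(CPM + 1), or over the wounded Rectum cells, on depth-scaled log values), and genes of marker and pathway lists that passed the fold or led their list. Genes leading the cells with Muc4 or Muc20 were chosen after their values had been seen. The members and lists were chosen with earlier results of these data known. Alternatives were the mean of per-cell values, cells under 10% mitochondrial UMIs, other thinning depths, no minimum of UMIs, shared features without mitochondrial genes, and a split of Rectum by goblet genes added after seeing the data.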

Additional observations from a re-analysis of the deposited data

Results flagged for a closer look

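Mucin UMIs also lay in data that no comparison between clusters used, the barcodes that failed the filters, at more than the 3 UMIs that a count of 0 allows. In the normal library, these barcodes held 316 UMIs of Muc2, 377 of Muc3, 358 of Muc13, 5 of Muc1 and 5 of Muc4. In the wounded library they held 6412 UMIs of Muc2, 5487 of Muc3, 7750 of Muc13, 105 of Muc1 and 197 of Muc4. The ratio of Muc2 to Muc13 UMIs was 0.883 (0.756 to 1.03) in the failing barcodes of the normal library and 0.827 (0.800 to 0.855) in those of the wounded library, whereas it was 0.212 (0.175 to 0.255) and 1.63 (1.56 to 1.72) in Rectum. Scaled to the UMIs of nuclear genes, the wounded over normal log2 ratio in failing barcodes was -0.18 (-0.34 to -0.01) for Muc2, -0.65 (-0.81 to -0.50) for Muc3 and -0.08 (-0.23 to 0.08) for Muc13.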

How the results depend on the processing

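Of 71 alternative values for 28 results, 42 moved less than the counting interval or by less than 1.5 times. One reversed: among cells under 10% mitochondrial UMIs, Muc3 in Hybrid over the stratified clusters had a log2 ratio of -0.99, from 1 UMI. Among the same cells Muc2 and Muc13 were 2.31 and 4.01 in Hybrid, 7.08 and 7.0 in wounded Rectum over other named cells, with 7.03 for Muc3, and Muc2 was 2.19 in wounded over normal Rectum. With cells weighted equally, the ratios in Rectum over other cells were 8.44 for Muc2 and 8.76 for Muc13 (normal) and 3.41 for Muc4 and 5.77 for Muc13 (wounded). In wounded over normal Rectum, Muc2 was 2.07 in thinned cells, 0.75 in cells under the goblet limit and 1.82 in those at or over it. Muc3 was -1.25 and -1.23 and Muc13 -0.66 and -0.26 in these cells. Shares depended on depth. At 1000 and 4000 UMIs, wounded Rectum had 27.5% and 41.1% for Muc2, 28.5% and 52.9% for Muc3 and 45.2% and 89.6% for Muc13, with 12.1% for Muc4 at 4000. Normal Rectum had 62.9% and 94.7% for Muc13 and, at 1000 UMIs, 6.45% for Muc2. Without a minimum of UMIs, 11.3% of genes were past 4-fold higher in normal Rectum. The causes of these shifts were not tested. No paired analysis was possible because each condition is 1 library, and for the same reason no replicate could be left out. Depth limits Muc1, Muc4 and Muc20 in the normal Rectum, where they had 1, 8 and 0 UMIs.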

Other observations

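A mucin that was not among the 6 members followed the stratified side of the junction. Muc15, a transmembrane mucin, was at 32.4 CPM (25.5 to 40.7) in the normal Suprabasal cluster, from 74 UMIs in 54 of 187 cells, and at 37.3 CPM (33.9 to 41.0) in the wounded one, from 432 UMIs in 272 of 1032 cells. It had 0 UMIs in the normal Rectum, 0.487 CPM in the wounded Rectum and 0.739 to 14.9 CPM in the other named and unlisted groups of both libraries. Muc3a, the neighbour of Muc3, was at 24.1 CPM in the normal and 17.0 CPM in the wounded Rectum.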
